A study of Mus musculus with 30 samples.

Results

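The 8 genes described here encode regulators of mRNAs that carry AU-rich elements. They are the Zfp36 family (Zfp36, Zfp36l1 and Zfp36l2), the AU-rich element binding proteins Elavl1, Hnrnpd, Khsrp and Tia1, and the endonuclease Zc3h12a, 8 of the 47643 genes in the table. The set was chosen by name around Zfp36l1, which is among the few genes with lower values in male Het than in male WT microglia. The comparison of Het with WT males therefore chose the set, and all values from it are given as description, without a test. The same holds for Zfp36l1 wherever the WT, Het or Homo male libraries enter, since the comparison of Homo with WT males shares the WT libraries with it and the one of early with late mouse numbers shares the Het libraries.

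AU-rich elements in 3′ UTRs mark short-lived mRNAs, among them those of cytokines and immediate early genes. Tristetraprolin, the product of Zfp36, and its paralogues bind UAUUUAU through paired CCCH zinc fingers and recruit the CCR4-NOT deadenylase, so that the bound mRNA is shortened and degraded. Elavl1 (HuR) binds similar elements and is best known as a stabilizer, Tia1 represses translation of mRNAs such as that of Tnf, and Zc3h12a (Regnase-1) cleaves stem-loops in cytokine mRNAs. In macrophages and microglia this network limits the output of inflammatory genes.

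RNA of microglia sorted from 3-month-old mice was sequenced, 1 library per mouse, in 30 libraries. WT mice carried 1 floxed and 1 wild-type allele of Bin1 and no Cre. Het mice had the same Bin1 alleles with Cx3Cr1-Cre, and Homo mice had 2 floxed alleles with Cx3Cr1-Cre. Microglia thus lose 1 copy of Bin1 in Het and both copies in Homo mice, and Bin1 loss and the presence of Cre cannot be told apart when either is compared with WT. Cre is expressed from the Cx3cr1 locus, which is active in microglia and in other myeloid cells. There were 5 WT, 6 Het and 5 Homo males (WT-M, Het-M, Homo-M) and 4 WT, 5 Het and 5 Homo females (WT-F, Het-F, Homo-F). The question was whether loss of Bin1 in microglia changes their transcripts in either sex.

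The genes were located on GRCm38 (mm10). Zfp36 lies at chr7:28376784-28380253, Zfp36l1 at chr12:80107754-80113013, Zfp36l2 at chr17:84183931-84187947, Elavl1 at chr8:4285382-4325413, Hnrnpd at chr5:99955935-99978938, Khsrp at chr17:57021051-57031522 and Zc3h12a at chr4:125118423-125127840, all on the minus strand. Tia1 lies at chr6:86404219-86433405 on the plus strand.

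Regulators of this kind can be encoded by AU-rich mRNAs themselves, so the annotated 3′ UTR of each was searched on the transcript strand for the heptamer TATTTAT, which is UAUUUAU in RNA. It was found in 5 of 8 members (62.5%) and in 26.1% of the 20717 genes with an annotated 3′ UTR. The longer nonamer TTATTTATT, which contains the heptamer, was found in 4 of 8 members (50.0%) and in 7.13% of all these genes. The members' 3′ UTRs had a median of 1829 bases against 848 bases in all genes, and longer UTRs hold more matches. Each of the 3 Zfp36 family mRNAs held 3 heptamers. Among genes with 3′ UTRs of similar length, 1.25% had at least as many as Zfp36, 4.18% as Zfp36l1 and 4.15% as Zfp36l2. Elavl1 held 8, Tia1 held 1, and no match was in the annotated 3′ UTR of Hnrnpd, Khsrp or Zc3h12a. The stretches below are 30 bases of 3′ UTR around heptamers of the members that have them, 5′ to 3′ on the transcript strand, with every heptamer in capitals. They are shown because this motif is the site that the Zfp36 proteins recognise.
Zfp36 (chr7:28376958-28376987): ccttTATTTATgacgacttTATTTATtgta
Zfp36l1 (chr12:80108422-80108451): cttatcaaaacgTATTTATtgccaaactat
Zfp36l2 (chr17:84184914-84184943): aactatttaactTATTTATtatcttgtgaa
Elavl1 (chr8:4285777-4285806): tTATTTATTTATTTATTTATtttTATTTAT
Tia1 (chr6:86430466-86430495): ccagatacaatgTATTTATttaaaagattc
A match describes the letters only and was not tested for binding.

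**Figure D1:**
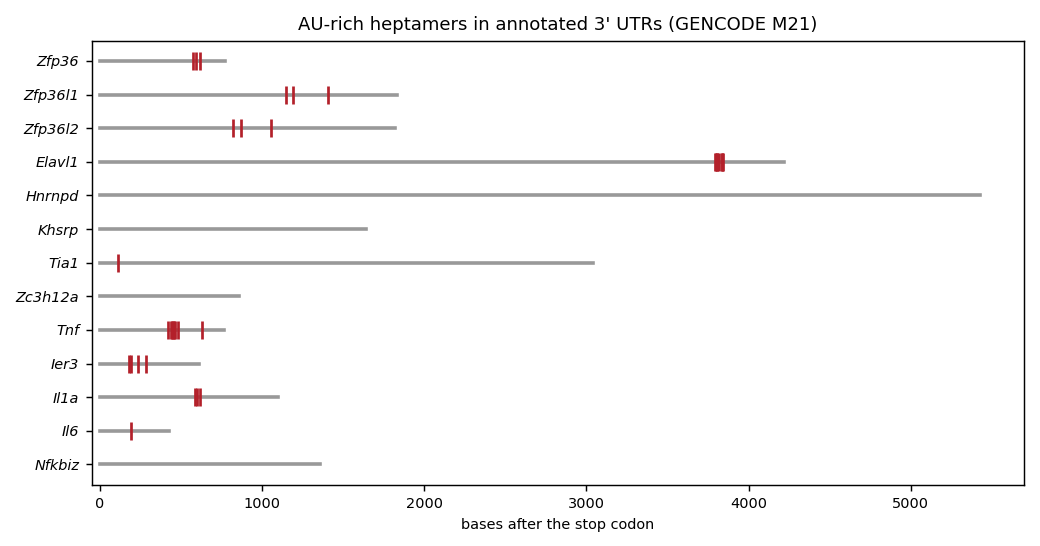
Annotated 3′ UTRs (grey lines, in bases after the stop codon) of the 8 members and of 5 target mRNAs, with each TATTTAT heptamer as a red tick. The 3 heptamers of Zfp36 sit between bases 575 and 615, those of Elavl1 are clustered between bases 3795 and 3841, and Hnrnpd, Khsrp, Zc3h12a and Nfkbiz have none.

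Bin1 was read first as a check of the labels. It was at 230.3 to 289.5 FPKM (a level corrected for transcript length and for the number of fragments sequenced) in the 5 WT-M libraries and averaged 49.7 ± 6.82 (SD, n = 5) in Homo-M. In females it averaged 253 ± 12.5 (n = 4) in WT-F and 41.2 ± 1.90 (n = 5) in Homo-F. Cx3cr1 averaged 2043 ± 247 FPKM (SD, n = 5) in WT-M, 933 ± 237 (n = 6) in Het-M and 928 ± 157 (n = 5) in Homo-M. In females Cx3cr1 averaged 2061 ± 52.6 (n = 4) in WT-F, 917 ± 512 (n = 5) in Het-F and 1168 ± 52.6 (n = 5) in Homo-F. All Cre-positive groups thus had lower Cx3cr1 than WT, which cannot be told apart from loss of Bin1 in comparisons with WT. The library labelled Het-M-0199 had 51.8 FPKM of Bin1 and the library labelled Het-F-0206 had 42.7, both within the range of Homo libraries of the same sex. The library labelled Het-F-0206 also had 13.9 FPKM of Cx3cr1, where the group's median was 1071. Both libraries were kept as labelled, and members are given with and without them where the value turns on it. Microglial markers (13 genes, among them P2ry12 and Tmem119) summed to 21630 to 31024 FPKM in every library.

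A second split of the libraries came from the mouse numbers in the titles, which fall into an early range and a late one. Early numbers were carried by 3 of 5 Homo-M, 2 of 6 Het-M and 1 of 4 WT-F libraries and by none of the other groups. Mouse number range is partly confounded with genotype in males, so the values are also given within the late range. An lncRNA index was taken as the mean log2 level over 955 lncRNA genes less the mean over 10266 protein-coding genes, set to 0 at the median library. It was between 0.43 and 0.88 in the early Cre-positive males and between -0.27 and 0.61 in the late ones.

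All 8 members were expressed in all 30 libraries, and all passed the filter on low values. FPKM is a level per transcript length, so levels may be set side by side. Zfp36l2 had the highest mean, 136 FPKM ± 23.1 (SD, n = 30), followed by Hnrnpd with 69.6 ± 6.73, Tia1 with 59.3 ± 29.6, Elavl1 with 50.3 ± 5.63, Zfp36 with 48.3 ± 8.97 and Zfp36l1 with 39.2 ± 9.82. Khsrp followed with 11.4 ± 1.43 and Zc3h12a with 3.49 ± 0.699. The lowest Zfp36l2 value, 105 FPKM, was above every value of the others except those of Tia1 in some male libraries. The neighbours Tia1, Elavl1, Zfp36 and Zfp36l1 overlapped in their ranges. The lowest Khsrp value, 8.29 FPKM, was above the highest of Zc3h12a, 5.74 FPKM.

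**Figure D2:**
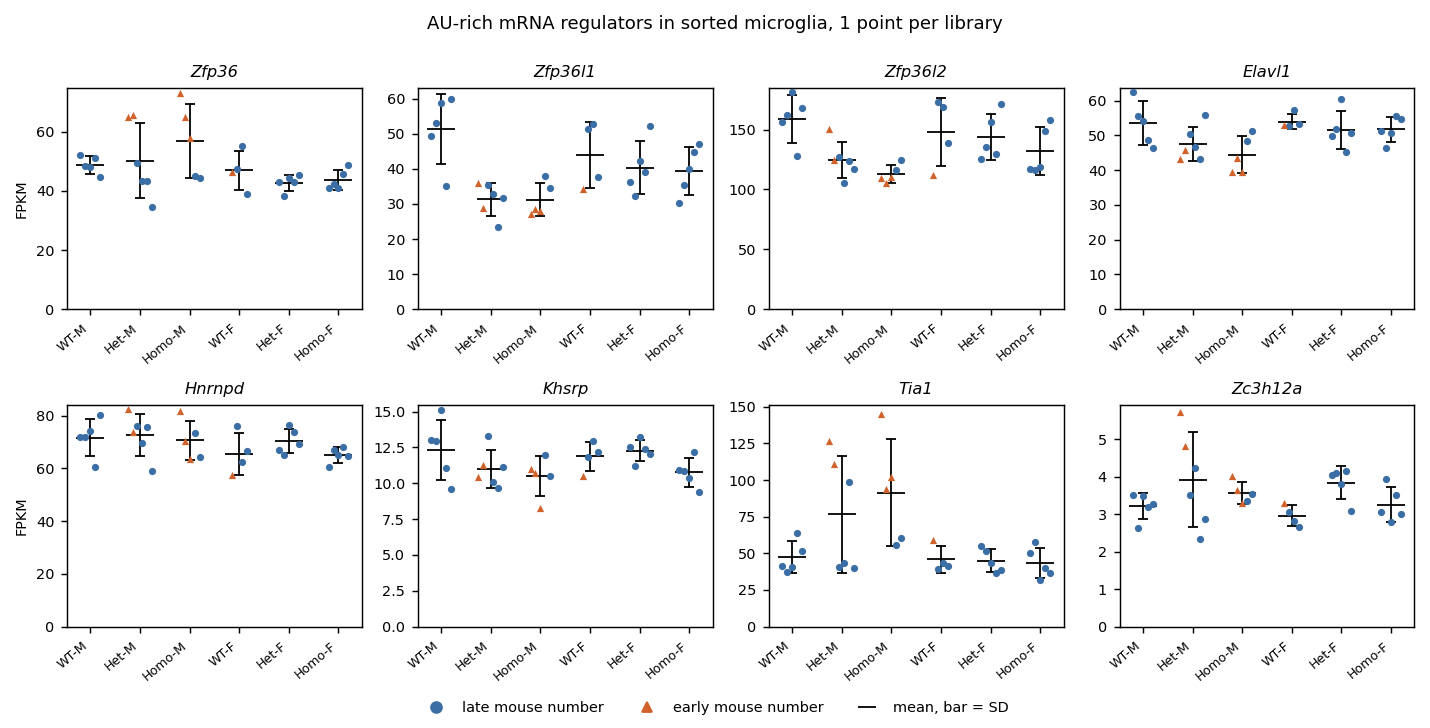
FPKM of each member (y axis, linear, from 0) in the 30 libraries by group, with the mean and SD; triangles are mice with early numbers. Zfp36l1 and Zfp36l2 were lower in most Cre-positive male libraries than in WT-M, and the high values of Tia1, 94.0 FPKM and above, were all in Cre-positive males.

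Zfp36l1, the paralogue that chose the set, was at 49.4, 53.0, 58.9, 35.1 and 59.8 FPKM in the 5 WT-M libraries. In the 6 Het-M libraries it ranged from 23.4 to 36.0 FPKM with a median of 32.3. The Homo-M libraries had 27.2, 28.5, 27.9, 37.8 and 34.6 FPKM. The library WT-M-0202 stood below the other 4 and was the only one to overlap with Het-M and Homo-M: 4 of 6 Het-M and 4 of 5 Homo-M libraries were below it, and all 11 were below the WT-M median. The log2 fold change was -0.77 (SE 0.17) in Het-M and -0.79 (SE 0.18) in Homo-M, which is 0.586 and 0.580 times the WT-M level. These are descriptions, because the gene was chosen for the first of them. In that comparison 26 of 16897 genes (0.154%) were called and 5 (0.0296%) were called lower. No call is read there for the members, as the comparison chose the set. The member next in order, Zfp36l2, had a log2 fold change of -0.43. Het-M without the library labelled Het-M-0199 gave -0.80. Among late mice the Homo-M difference was -0.48, with 34.6 and 37.8 FPKM in the 2 late Homo-M libraries and 27.2 to 28.5 FPKM in the 3 early ones.

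In females, whose libraries the choice did not use, Zfp36l1 was at 34.1, 51.4, 52.7 and 37.7 FPKM in WT-F, at 36.3, 32.2, 42.1, 39.0 and 52.2 in Het-F and at 30.2, 35.3, 39.8, 44.8 and 47.1 in Homo-F. The groups overlapped throughout. The log2 fold change was -0.15 in Homo-F (95% interval -0.54 to 0.23) and -0.12 in Het-F (-0.50 to 0.26), and neither passed the test (limma, adjusted p = 1 for both). The intervals for females reach -0.54 and -0.50. The early WT-F library had the lowest WT-F value, 34.1 FPKM, and the 3 late ones averaged 47.3 ± 8.32 (SD). Over the other processing settings, late mice only among them, the log2 fold change ran from -0.28 to -0.15 in Homo-F. In Het-F it ran from -0.25 to -0.04. The male and female differences are not shown to differ, since the difference between the sexes was not tested for Zfp36l1. The value of that difference was -0.63 (SE 0.26), and it ran from -0.63 to -0.20 over the other processing settings.

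Zfp36l2, the most abundant of the family, was at 156, 162, 181, 128 and 168 FPKM in WT-M and at 110, 105, 110, 116 and 125 FPKM in Homo-M. The lowest WT-M library was again WT-M-0202, and all 5 Homo-M libraries were below it. Het-M ranged from 105 to 150 FPKM with a median of 124, and 5 of 6 libraries were below the lowest of WT-M. In Homo-M the log2 fold change was -0.56 (SE 0.13, 95% interval -0.83 to -0.30). It passed the adjusted p threshold (limma with Benjamini-Hochberg adjustment, adjusted p = 0.0172) but at 0.676 times the WT-M level it missed the fold threshold of 1.5, so Zfp36l2 was not called. By adjusted p alone 2.82% of genes passed in this comparison, and 1.27% passed with lower values. Zfp36l2 was the only member whose Homo-M and WT-M values did not overlap, as was so with lower values for 1.37% of all genes. The exact two-sided permutation test gave p = 0.00794, the smallest that 5 against 5 allows, and an adjusted p of 0.246 over the 31 member tests run. Zfp36l2 varied with Zfp36l1 over the libraries (Pearson's r = 0.91) and was compared with the WT-M libraries that chose Zfp36l1. Its p-values, here and for the sex difference, are therefore not independent of that choice.

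The Homo-M result of Zfp36l2 depended on the libraries. Within late mice the log2 fold change of Zfp36l2 was -0.39 (adjusted p = 0.523), and -0.44 in a fit with number range as a term (adjusted p = 0.234). It passed both thresholds without Homo-M-0189 (-0.60), Homo-M-0190 (-0.61) or WT-M-0202 (-0.65), while the adjusted p was above 0.05 without Homo-M-0093 (0.0614), Homo-M-0109 (0.0569), WT-M-0177 (0.0515) or WT-M-0178 (0.0550). In females Zfp36l2 was at 112 to 173 FPKM in WT-F, 125 to 172 in Het-F and 116 to 158 in Homo-F. The log2 fold change was -0.16 in Homo-F (95% interval -0.44 to 0.11) and -0.04 in Het-F (-0.31 to 0.24). The lowest WT-F value was that of the early library, and the 3 late ones averaged 160 ± 18.6 FPKM (SD). Over the other processing settings, late mice only among them, the log2 fold change ran from -0.31 to -0.16 in Homo-F. In Het-F it ran from -0.18 to -0.01.

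Zfp36, which encodes tristetraprolin, had 44.6 to 52.0 FPKM in the 5 WT-M libraries. In Homo-M it was at 72.9, 64.8, 57.9, 44.9 and 44.2 FPKM, and in Het-M it ranged from 34.4 to 65.7 with a median of 46.3. The high values of both groups were those of the early mice. In Cre-positive males the 5 early libraries had 57.9 to 72.9 FPKM and the 6 late ones 34.4 to 49.4, without overlap, as 4.52% of genes did with higher and 1.11% with lower values in early mice. Across these males the log2 difference of early from late mice, with genotype as a term, was 0.43 (SE 0.11, adjusted p = 0.0241), which passed the adjusted p threshold, as 15.9% of genes did, and missed the fold threshold. The adjusted p was above 0.05 without Het-M-0100 (0.0909), Het-M-0108 (0.0625), Homo-M-0093 (0.0525), Homo-M-0189 (0.0669) or Homo-M-0190 (0.0583). The one early WT-F library had 46.3 FPKM, within the 39.1 to 55.2 of the late WT-F libraries. Between Homo-M and WT-M the log2 fold change was 0.11 (SE 0.12, adjusted p = 0.616), and -0.13 among late mice. By unadjusted p under 0.05, 22.5% of genes passed in that comparison, and 2.56% did not overlap with higher values in Homo-M.

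Khsrp, whose product KSRP recruits decay enzymes, had 9.59 to 15.1 FPKM in WT-M, 9.66 to 13.3 in Het-M and 8.29 to 11.99 in Homo-M. The Homo-M values overlapped with WT-M and the log2 fold change of -0.31 (SE 0.13) did not pass (adjusted p = 0.173). Hnrnpd (AUF1), which can promote either decay or stability, was among the steadiest members. It had means of 65.1 to 72.8 FPKM over the 6 groups and a log2 fold change of -0.10 in Homo-M (95% interval -0.29 to 0.09, adjusted p = 0.521). In females the values of Khsrp were 0.04 in Het-F and -0.15 in Homo-F, and those of Hnrnpd were 0.10 and -0.01, all on the log2 scale and none past the test.

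Elavl1 was at 46.5 to 62.5 FPKM in WT-M, 43.3 to 56.0 in Het-M and at 39.4, 43.5, 39.6, 48.4 and 51.2 in Homo-M. The 3 Homo-M libraries below the lowest of WT-M were the 3 early ones. The log2 fold change in Homo-M was -0.35 (SE 0.12, adjusted p = 0.0864) and did not pass, and among late mice it was -0.10. Early against late Cre-positive males differed by -0.36 (SE 0.11, adjusted p = 0.0418), under the fold threshold, where 6.9% of genes passed by adjusted p alone with lower values. Leaving out 1 library at a time gave adjusted p of 0.00457 to 0.143, under 0.05 only without Het-M-0203 or Homo-M-0097. The 4 WT-F libraries were within 52.7 to 57.2 FPKM, and the log2 fold changes in females were -0.07 in Homo-F and -0.07 in Het-F.

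Tia1 varied most. It was at 41.7, 37.5, 40.8, 64.2 and 51.8 FPKM in WT-M and at 145, 94.0, 102, 55.6 and 60.3 in Homo-M. Het-M ranged from 39.97 to 127 FPKM with a median of 71.1. The values of 94.0 FPKM and above belonged to the 5 early Cre-positive males and to the late library Het-M-0203, with 98.9 FPKM. The log2 fold change in Homo-M was 0.81 (SE 0.25, 95% interval 0.30 to 1.32) with an adjusted p of 0.0667, so it was not called. It was called without Homo-M-0189 (0.94, adjusted p = 0.0289), Homo-M-0190 (0.92, adjusted p = 0.0460) or WT-M-0202 (0.92, adjusted p = 0.0390), and was 0.64 (adjusted p = 0.213) without Homo-M-0093. With number range as a term it was 0.31 (adjusted p = 0.718) and among late mice 0.32 (adjusted p = 0.831).

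Between early and late Cre-positive males Tia1 was called: the log2 difference was 0.93 (SE 0.19, adjusted p = 0.0160), and 7.98% of the 17326 genes tested were called there in either direction, 6.17% with higher and 1.81% with lower values. By unadjusted p 33.1% were under 0.05. Tia1 was the 1 member called of the 7 tested. Without Het-M-0100 its adjusted p was 0.0815 and without Homo-M-0189 it was 0.0591. With either of these libraries left out, 1 gene was called in all. Tia1 levels followed the lncRNA index (Pearson's r = 0.94 over 30 libraries, 0.83 over the 24 late ones), and Elavl1 levels ran against it (-0.88 and -0.69). Zfp36l1 also ran against the index (-0.68 and -0.48). These are descriptions over libraries whose relative depth ranged from 0.669 to 1.41 (0.669 to 0.920 in the early Cre-positive males and 0.727 to 1.41 in the late ones), and the part of the library differences in the levels of Tia1 and Elavl1 was not tested. In females Tia1 was at 39.5 to 59.1 FPKM in WT-F, 36.5 to 54.8 in Het-F and 32.0 to 57.7 in Homo-F. The 59.1 FPKM was that of the one early WT-F library, above the 39.5 to 43.3 of the late ones.

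**Figure D3:**
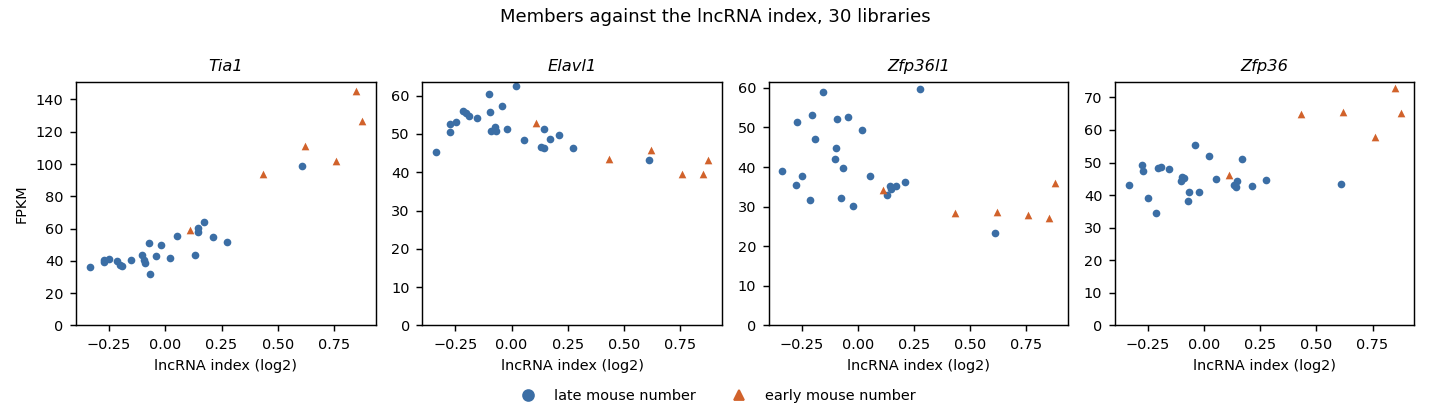
FPKM of Tia1, Elavl1, Zfp36l1 and Zfp36 (y axis) against the lncRNA index (x axis, log2), 1 point per library, with early mouse numbers as triangles. The 5 early Cre-positive males have an index of 0.43 or more and Tia1 of 94.0 FPKM or more, and Het-M-0203 is the late library beside them.

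Zc3h12a was the least abundant member. It had 2.64 to 3.52 FPKM in WT-M, 2.34 to 5.74 in Het-M and 3.30 to 4.02 in Homo-M. The log2 fold change in Homo-M was 0.06 (adjusted p = 0.850), and it had the opposite sign after quantile normalization (-0.05). In females it was at 2.66 to 3.30 FPKM in WT-F and at 4.04, 4.09, 3.80, 4.15 and 3.09 in Het-F. In Het-F, 4 of 5 libraries were above the highest of WT-F. The log2 fold change there was 0.36 (95% interval 0.00 to 0.71) with an adjusted p of 1. The exact permutation test gave p = 0.0317 and an adjusted p of 0.246. The Het-F mean was 3.84 FPKM with and 3.77 FPKM without the library labelled Het-F-0206.

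In the comparison of Homo-M with WT-M, 306 of 16897 genes (1.81%) were called, 1.17% higher and 0.645% lower, and 0 of the 7 members tested. In females 12 genes (0.071%) were called in Homo-F against WT-F, 22 (0.13%) in Het-F against WT-F and 2 (0.0118%) in Homo-F against Het-F, and 0 of 8 members in each. An unadjusted p under 0.05 was reached by 589 genes (3.49%), 668 (3.95%) and 348 (2.06%). The female log2 fold changes of the 8 members lay between -0.16 and 0.12 in Homo-F and between -0.13 and 0.36 in Het-F, and no member separated from WT-F, as 1.65% of genes did with higher and 0.663% with lower values in Homo-F and 1.58% and 0.633% in Het-F. Homo-F and Het-F separated in no member either, against 0.254% and 0.237% of genes. With that Het-F library left out, 9 genes were called in Het-F. Over the 31 exact permutation tests of members, 5 had p under 0.05, and no adjusted p was under 0.246.

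**Figure D4:**
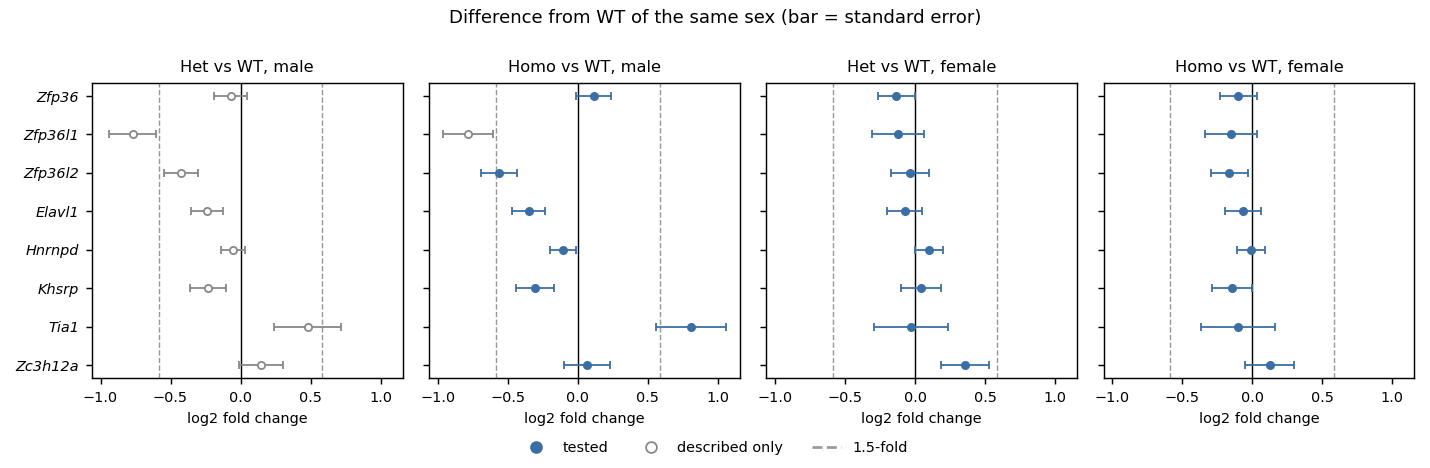
Log2 fold changes of the 8 members against WT of the same sex (x axis, bars are standard errors, dashed lines mark 1.5-fold), with tested values filled and described ones open. In males the values run from -0.79 for Zfp36l1 to 0.81 for Tia1, and in females all lie between -0.16 and 0.36.

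For the sexes, the difference of Homo-F from WT-F was subtracted from that of Homo-M from WT-M and tested against 0. By limma 0 of 16897 genes (0%) passed and 1569 (9.29%) had an unadjusted p under 0.05. Of the 7 members tested, Tia1 (0.91, SE 0.36, unadjusted p = 0.0185) and Zfp36l2 (-0.40, SE 0.19, unadjusted p = 0.0387) were among the latter, with adjusted p of 0.526 and 0.528. Both values depended on the processing. Over the other settings, among them number range as a term and late mice only, Tia1 ran from 0.20 to 0.99 and Zfp36l2 from -0.40 to -0.085.

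Zfp36l1 and Zfp36l2 varied together. Over the 30 libraries the gene most like Zfp36l1, of 11622 with a mean of at least 1 FPKM, was Zfp36l2 (Pearson's r = 0.91 of log2 values, and 0.84 for deviations from the group means). It was followed by Hsp90ab1 (0.90), Hspd1 (0.90), Pnpla2 (0.90) and Itpripl1 (0.90). Hsp90ab1 and Hspd1 encode chaperones, and Pnpla2 encodes a triglyceride lipase. Zfp36 had other neighbours: Gm43305 (0.84), Khdc4 (0.78), Gm42428 (0.78), Slc12a9 (0.77) and Cbx7 (0.73). Between Zfp36 and Zfp36l1 r was -0.05 over all libraries and 0.64 over the 24 late ones. Elavl1 and Tia1 ran opposite to each other (-0.86 over 30 libraries, -0.67 over the late ones).

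The mRNAs that this network acts on were read from a list of 30 AU-rich target mRNAs, of which 24 passed the filter. In Homo-M 5 of 24 were called higher, where 1.17% of all genes were, and 1 lower, where 0.645% were. The median log2 fold change of the 24 was 0.45 against 0.03 over all genes. The 5 that rose were Tnf (1.95), Ier3 (1.26), Nfkbiz (1.13), Il6 (0.90) and Il1a (0.60), and the 1 that fell was Cebpb (-0.59, close to the fold threshold). Tnf, Il6 and Il1a encode inflammatory cytokines, Ier3 an immediate early survival factor, Nfkbiz a nuclear IκB protein that drives secondary NF-κB genes, and Cebpb a transcription factor of myeloid cells. Heptamers were found in the 3′ UTRs of 24 of the 29 target genes with an annotated one (82.8%): 8 in Tnf, 4 in Ier3, 3 in Il1a and 1 in Il6, with none in the 3′ UTRs of Nfkbiz and Cebpb. The list was drawn up as AU-rich targets, so this share is not read as a result. Stretches of 30 bases from the 4 that rose and hold the motif are shown as above.
Tnf (chr17:35199677-35199706, minus strand): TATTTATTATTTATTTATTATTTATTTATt
Ier3 (chr17:35822484-35822513, plus strand): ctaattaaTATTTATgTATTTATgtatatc
Il6 (chr5:30019727-30019756, plus strand): atttatgattgaTATTTATtatttttatga
Il1a (chr2:129300103-129300132, minus strand): tctatgTATTTATaaataTATTTATgataa

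Tnf was at 0.691, 0.906, 0.681, 1.88 and 1.30 FPKM in WT-M and at 5.51, 6.75, 3.47, 3.90 and 3.40 in Homo-M. The groups did not overlap, and the difference was 3.85-fold (SE 0.37 on the log2 scale, adjusted p = 0.00658). Het-M lay between, from 1.34 to 5.11 FPKM with a median of 2.47. Nfkbiz was at 3.10, 2.12, 2.56, 3.47 and 2.97 FPKM in WT-M and at 9.60, 7.03, 8.60, 4.79 and 4.51 in Homo-M, also without overlap (adjusted p = 0.0111). Its 3 early Homo-M libraries were above both late ones, and between early and late Cre-positive males Nfkbiz was called as well (0.69, adjusted p = 0.0195). Ier3 was between 1.52 and 4.93 FPKM in WT-M and between 5.42 and 12.7 in Homo-M (adjusted p = 0.0362). Il1a was between 63.2 and 98.7 FPKM in WT-M and between 104 and 128 in Homo-M (adjusted p = 0.0267). Neither overlapped. Il6 overlapped, with 3.07 to 10.5 FPKM in WT-M and 8.70 to 16.6 in Homo-M (adjusted p = 0.0352). Its late Homo-M libraries had 8.70 and 9.63 FPKM, within the WT-M range, and its early ones had 13.3 to 16.6 FPKM. Between early and late Cre-positive males Il6 differed by 0.46 (limma, adjusted p = 0.0589), which did not pass. Cebpb was between 44.6 and 69.4 FPKM in WT-M and between 37.4 and 44.4 in Homo-M, just without overlap (adjusted p = 0.0174). WT-M-0202, lowest of WT-M for Zfp36l1 and Zfp36l2, was highest of WT-M for all these mRNAs except Cebpb, where it was lowest. The early WT-F library had 2.21 FPKM of Tnf against 0.41 to 1.04 in the late ones. For Nfkbiz it had 4.83 against 2.11 to 2.92, and for Il6 9.99 against 4.58 to 5.94. Its Il1a (96.6) and Ier3 (4.79) were the highest of WT-F, and its Cebpb (47.5) lay within the late range.

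**Figure D5:**
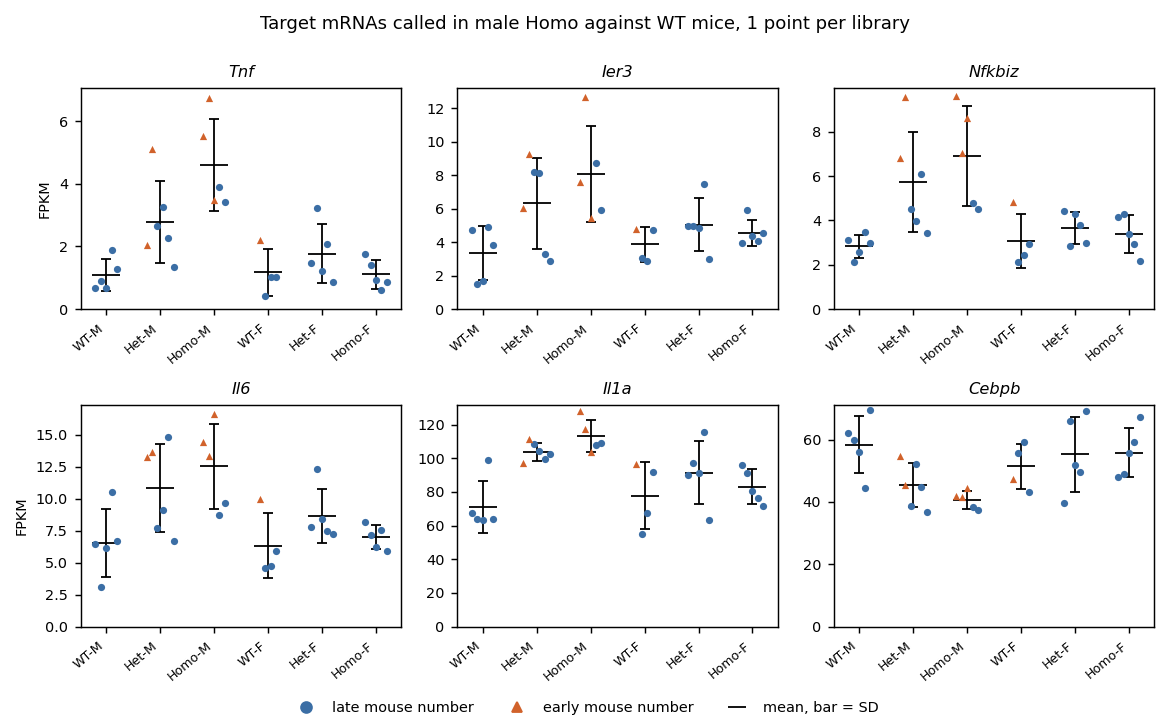
FPKM of the 6 target mRNAs called in Homo-M against WT-M (y axis, linear, from 0) by group, 1 point per library, with the mean and SD; triangles are mice with early numbers. Tnf is at 3.40 FPKM or more in all Homo-M libraries and at 1.88 FPKM or less in all WT-M libraries, whereas in females the groups overlap.

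With number range as a term 0 of the 24 target mRNAs were called, where 35 of 16897 genes were. Among late mice, with 2 Homo-M libraries, 0 were called, where 9 of 16565 genes were. At these shares a list of this size would hold few calls, and the counts of 0 are not read as a result about the targets. In these settings, in that order, the log2 fold changes were 1.60 and 1.75 for Tnf, 0.68 and 0.71 for Nfkbiz, 0.56 and 0.58 for Il6, 1.09 and 1.24 for Ier3, 0.59 and 0.63 for Il1a and -0.59 and -0.61 for Cebpb. In both settings Nfkbiz and Il6 were over 1.5 times smaller on this scale, with adjusted p of 0.186 or more. Leaving out 1 library at a time gave 2 to 8 target mRNAs called, with 2 without Homo-M-0093 or WT-M-0177 and 3 without Homo-M-0097, WT-M-0176 or WT-M-0178. Tnf and Nfkbiz were called in each of these 10 fits. In females 0 target mRNAs were called in either comparison, where 0.071% of all genes were called in Homo-F and 0.13% in Het-F. There the median log2 fold change was 0.16 in Homo-F and 0.33 in Het-F, with Fos, an immediate early transcription factor, at 0.88 in Homo-F (adjusted p = 1) and the cytokine gene Il1b at 1.00 in Het-F (adjusted p = 0.278). The sex difference of Tnf was 1.91 (SE 0.54, adjusted p = 0.495), which did not pass. As Het-M against WT-M chose the set, its target values are description only: the median was 0.41, with Tnf at 1.19.

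Of the mRNAs cleaved by Regnase-1 (11 listed, 8 tested), 2 were called higher and 1 lower, beside 1.17% and 0.645% of all genes. They were Nfkbiz and Il6, which were higher as given above, and Lcn2, which was lower in Homo-M (-4.74, adjusted p = 0.00756) and is also a neutrophil gene. Of the immediate early genes, 19 of 20 were tested and 2 were called, both lower, where 1.81% of all genes were called and 0.645% called lower: Klf2 (-1.69, adjusted p = 0.00991), a transcription factor that restrains inflammatory genes, and Hspa1b (-4.05, adjusted p = 0.0243), a heat-shock chaperone. Hspa1b spanned 0.259 to 10.7 FPKM within WT-M. The summed level of the 20 immediate early genes was 544 to 654 FPKM in WT-M and 509 to 590 in Homo-M.

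Of the machinery around the members, these counts were called in Homo-M: 0 of 12 relatives tested, 0 of 18 deadenylation genes, 0 of 23 decapping and decay genes and 0 of 14 upstream signalling genes. As 1.81% of all genes were called, lists of this size would hold few calls at that share, and the counts of 0 are not read as a result about the machinery. Their largest differences were those of Hnrnpdl, a paralogue of Hnrnpd (0.41, adjusted p = 0.165), Tob1, an adaptor of the CCR4-NOT complex (-0.68, adjusted p = 0.0791), Pan2, a deadenylase subunit (0.45, adjusted p = 0.142), Edc3, an enhancer of decapping (-0.41, adjusted p = 0.0648), and Ywhab, a 14-3-3 protein of the kind that binds phosphorylated tristetraprolin (-0.47, adjusted p = 0.0379, under the fold threshold). Median log2 fold changes were 0.08, -0.10, -0.04 and -0.25 in that order of lists. Between early and late Cre-positive males, Hnrnpdl (0.60), Tial1, the paralogue of Tia1 (0.71), Pan2 (0.60) and Skiv2l, a helicase of the exosome (0.66), were higher, and Ddx6, an activator of decapping (-0.69), Ywhag (-0.62) and the immediate early gene Rhob (-0.60) were lower. These calls are 2 of 13 relatives, 1 of 18 deadenylation genes, 2 of 23 decapping and decay genes, 1 of 14 upstream genes and 1 of 19 immediate early genes, beside 7.98% of all genes called there, and nothing is read from them about the machinery. None of the 7 was called without Het-M-0100 or without Homo-M-0189. Without scaling the differences of Ddx6 (-0.53), Ywhag (-0.46) and Rhob (-0.45) were under the fold threshold.

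Markers of other cells moved with the male groups. The neutrophil markers (10 genes) summed to 44.3 to 350 FPKM in WT-M and to 0.113 to 80.9 FPKM in Homo-M, and 5 of 9 tested were called lower, beside 0.645% of all genes (S100a9, Ngp, Lcn2, Ltf and Cd177). The border macrophage markers (8 genes) summed to 18.2 to 48.7 FPKM in WT-M and 12.6 to 29.8 in Homo-M, with 1 called, Clec4n (-1.80, adjusted p = 0.0309). In females the median log2 fold change of the neutrophil markers was -1.26 in Homo-F and -1.21 in Het-F. For the border macrophage markers it was -0.45 and -0.48. None of these markers was called in females, beside 0.071% of all genes in Homo-F and 0.13% in Het-F. The 9 lymphocyte markers, which include Cd3e, summed to under 1 FPKM in every library, and 2 of the 9 were at 0 in all. No gene of the 6 markers each of astrocytes, neurons, oligodendrocytes and endothelial cells was called in Homo-M. The summed astrocyte markers nevertheless did not overlap, with 67.8 to 76.7 FPKM in WT-M and 83.6 to 117 in Homo-M. Of these 6 markers 5 averaged under 1 FPKM, so the sum, here and below, rests mostly on the remaining gene. It is not read as a measure of astrocytes. Among single genes 2.56% did not overlap with higher values in Homo-M. Markers of other cells also moved with mouse number. Between early and late Cre-positive males the astrocyte marker Gja1 (1.96), the oligodendrocyte marker Mbp (1.30), the border macrophage marker Pf4 (0.88) and the neutrophil markers S100a8 (4.84) and S100a9 (4.21) were called higher, and the microglial markers C1qa (-0.77) and Olfml3 (-0.64) and the endothelial marker Pecam1 (-0.62) were called lower. All 6 astrocyte markers had higher values in early mice, with a median log2 difference of 1.02. The summed levels were 89.0 to 117 FPKM in early and 64.9 to 96.95 in late mice for astrocyte markers, and 21630 to 28346 and 25140 to 31024 for microglial markers. In bulk libraries fewer cells of a type and less RNA per cell cannot be told apart, and the part of these cells in the levels of Zfp36l1, Zfp36l2 and the target mRNAs, and in the early against late differences of Tia1, Zfp36 and Elavl1, was not tested.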

How the data were processed

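RNA of FACS-sorted microglia was sequenced in 30 libraries of 6 groups, named by their labels. The sort is taken from the methods of the study. The sample labels speak of microglial cultures instead. According to the methods the authors aligned reads to mm10 and estimated abundance with RSEM, and they deposited FPKM per gene, not log-transformed. The table has 47643 genes, 47224 of them with a symbol, and 6 columns that match no listed sample were not used here. The methods state that 6 samples with poor technical quality, also outliers, were removed. These came from every group but the Het males, with the most from the WT females. Whether the 6 columns are those samples was not checked. Read counts were not analysed here, so DESeq2, which the authors used, could not be run. FPKM hold no totals: depth relative to the median library, estimated from steps between low values, was 0.669 to 1.41. The methods state a nominal depth for all samples, and the totals of each library were not analysed here.

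Libraries were scaled by median-of-ratios factors (genes averaging at least 1 FPKM), a pseudocount of 0.1 was added, and log2 values of the 16897 genes with a mean of at least 0.1 FPKM were fitted with limma 3.58.1 (R 4.3.3, intensity trend, 6 groups), with Benjamini-Hochberg adjustment over all genes. Genes with an adjusted p under 0.05 and a fold change over 1.5 were called (adjusted p alone for the sex difference). Fold changes are on the log2(FPKM + 0.1) scale, which understates low genes. Early and late mouse numbers were compared in Het-M and Homo-M with genotype as a term (17326 genes). Single members were also compared by an exact two-sided permutation test of mean FPKM (Python 3.11.15, scipy 1.17.1). The fit and the permutation test were checked on simulated data. Libraries are from separate mice. No 2 columns were identical.

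The 8 members are all named. From each other list the genes called in a comparison are named (at most 5 by size), or at most 2 with the largest difference where none was called, among means of at least 1 FPKM, and the 5 genes most like Zfp36l1 and Zfp36. Exosc6 was not in the table. Some results that this rule would name are not reported here. The members, lists and tests were chosen with earlier results of these data known, so the lists are no independent evidence. 3′ UTRs were taken from GENCODE (GRCm38), 1 transcript per gene. Alternatives were another pseudocount, filter, scaling, weights, fit, covariate, mouse range and threshold, and leaving out each library. Leaving out the libraries labelled Het-F-0206 and Het-M-0199 was chosen after seeing the data.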

Additional observations from a re-analysis of the deposited data

Results flagged for a closer look

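Elavl1 in WT-F had 1 library far from the others: WT-F-0200 had 57.2 FPKM, and the other WT-F libraries had 52.7 to 53.2 FPKM. Of 48 member and group combinations checked, 1 was past Dixon's critical value, and chance gives about 1 in 20. Zfp36l1 in WT-M, where WT-M-0202 was lowest, did not pass it.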

How the results depend on the processing

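No paired analysis was possible because the groups share no replicate numbers: each label carries its own mouse number. Counts below are genes called, beside the reported count in parentheses, and the cause of each shift was not tested unless fewer samples or genes were fitted. In Homo-M against WT-M (306) there were 186 without a filter, 479 with array weights, 82 with only these groups fitted, 35 with number range as a term, 9 among late mice and 477 without the fold threshold, and from 77 to 822 on leaving out 1 library, the lowest with Homo-M-0093 and the highest with Homo-M-0189 left out (99 without Homo-M-0109, 106 without WT-M-0177, 129 without WT-M-0176, 140 without WT-M-0178, 159 without Homo-M-0097 and 596 without WT-M-0202). Members called there (0) were 1 with weights, 1 without the fold threshold and 0 to 2 on leaving out a library. Target mRNAs (6) were 3 with only these groups, 0 with the term, 0 among late mice and 2 to 8 on leaving out a library. Immediate early genes (2) were 1, 0 and 0 in these settings and 1 to 3, Regnase-1 targets (3) 1 with the term and 0 among late mice, upstream genes (0) 1 without the fold threshold, and deadenylation genes (0) 0 to 1. Het-M (26) gave 14 with weights, 4 with these groups only, 16 with the term, 12 among late mice and 12 to 57 on leaving out a library. Homo-F (12) gave 36 with weights, 21 with these groups only and 7 to 11, with 1 target mRNA in each of the first 2 settings. Het-F (22) gave 63 with weights, 9 with these groups only, 12 among late mice, 9 without the libraries labelled Het-F-0206 and Het-M-0199 and 9 to 26, with 2 target mRNAs with weights and 0 to 1 on leaving out a library. Homo-F against Het-F (2) gave 1 at a mean of at least 1 FPKM, 1 without a filter, 0 with these groups only, 0 among late mice and 0 to 2. The sex difference (0) gave 1 with these groups only. Early against late mice (1383) gave 600 without a filter, 2257 with weights, 2749 without the fold threshold and 1 (without Het-M-0100 or Homo-M-0189) to 2474 (without Het-M-0203), and members (1) were 2 without scaling, 3 without the fold threshold and 0 to 1.

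These log2 differences changed sign. In Homo-M, Zc3h12a was -0.054 by quantiles and -0.083 with the term, and Zfp36 -0.082 with the term and -0.13 among late mice. In Homo-F, Tia1 was 0.11 with the term and 0.015 among late mice. In Het-F, Khsrp was -0.017 and -0.025 and Tia1 0.18 and 0.083 in these settings. In Homo-F against Het-F, Elavl1 was -0.0052 by quantiles and -0.016 with weights, and Zfp36 -0.010 without the libraries labelled Het-F-0206 and Het-M-0199. For the sex difference, Zc3h12a was 0.017 without scaling, Zfp36 -0.064 and Khsrp 0.047 with the term, and Zfp36 -0.011, Hnrnpd 0.027 and Khsrp 0.098 among late mice. For early mice, Zfp36l2 was 0.041 and Hnrnpd 0.11 without scaling. On leaving out a library, Homo-F gave -0.083 to 0.074 for Hnrnpd and -0.20 to 0.016 for Tia1. Het-F gave -0.18 to 0.050 for Zfp36l2, -0.10 to 0.083 for Tia1 and -0.025 to 0.086 for Khsrp. Homo-F against Het-F gave -0.023 to 0.064 for Elavl1, -0.17 to 0.028 for Tia1, -0.010 to 0.058 for Zfp36 and -0.11 to 0.065 for Zfp36l1. Hnrnpd in early mice ranged from -0.079 to 0.0030.

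Without scaling the median of all genes was 0.23 in early against late mice (0.10 scaled), and the share of lower calls there was 3.41%, against 22.7% scaled and 33.4% by quantiles. In Homo-M it was 35.6% scaled and 23% unscaled. Zfp36l1 kept its sign in Het-M and Homo-M in all settings, which is description only, since it was chosen for lower values in Het-M. Its log2 fold change ran from -0.80 to -0.66 in Het-M and from -0.79 to -0.48 in Homo-M over the settings other than leaving out 1 library. Of the genes called in Het-M among late mice (12) and with only these groups fitted (4), 0% were lower. FPKM hold no fragment counts, so the counting error behind low values could not be given.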

Other observations

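Beyond the members, Cdkn1a, a cell cycle inhibitor with an unstable mRNA, was at 6.13 FPKM ± 0.738 (SD, n = 4) in WT-F, 12.3 ± 4.40 (n = 5) in Het-F and 11.1 ± 1.22 (n = 5) in Homo-F, and did not pass in either comparison (limma, adjusted p = 0.145 and 0.387). It was chosen after its values were seen. Ccl3, which encodes a chemokine, averaged 13.9 FPKM ± 1.61 (n = 5) in WT-M and 24.3 ± 4.18 (n = 5) in Homo-M, with an adjusted p of 0.0839 that did not pass, and was chosen in the same way.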
